A study of Mus musculus with 12 samples.

Results

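The receptors for growth hormone (GH) and prolactin, 3 of the Janus kinases (JAKs) that stand below such receptors and 4 of the STAT transcription factors that the kinases act on were followed in mouse liver by their symbols in a table of counts per gene. The 9 genes Ghr, Prlr, Jak1, Jak2, Tyk2, Stat3, Stat5a, Stat5b and Stat6 were all found, among 38087 genes in the table, and all 9 passed the filter on low counts that left 14235 genes for testing. Both groups were germ-free male C57BL/6j mice aged 13 to 16 weeks, so that absence of a gut microbiota was shared by the treated and the control animals. The GH group received recombinant human growth hormone under the skin, 50 µg per mouse, and the control group received PBS. Injections were given at ZT 2 and ZT 14 (hours after lights on) for 5 days, and livers were taken at ZT 2. Each group has 6 libraries, 1 per labelled liver sample. The sources used here do not give the time from the last injection to tissue collection. The labels do not say in so many words that each library is a separate animal, and the p-values refer to variation among these libraries, which may in part be technical.

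Growth hormone and prolactin bind related receptors of the class I cytokine receptor family, which have no kinase activity of their own. Binding activates JAK2, which is bound to the inner part of the receptor; it phosphorylates the receptor and STAT proteins, above all STAT5B in hepatocytes, and these then enter the nucleus and bind DNA. JAK1 and TYK2 serve other cytokine receptors, among them those of the interleukin 6 and interferon families. Pulses of GH in male rodents give pulses of liver STAT5 activity, and in rodent liver the prolactin receptor is known for higher levels in females than in males. Human growth hormone, unlike the rodent hormone, also binds the prolactin receptor. What is measured here is RNA, and neither phosphorylation nor protein.

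Prlr, the prolactin receptor, was the member that fell with GH, to 32.5% of its PBS level, and the other 8 members did not pass the test. Its annotated starts are shown because it carries that result and because the shared STAT5 target motif can be looked for in them. RefSeq on GRCm38.p6 places 3 starts for Prlr on the plus strand of chromosome 15, and the 250 bases that precede each are printed 5′ to 3′. Capitals mark the match to TTCNNNGAA, the palindromic core bound by STAT dimers with a spacer of 3 bases, which reads the same on both strands.
Prlr, first window, chr15:10176988-10177237: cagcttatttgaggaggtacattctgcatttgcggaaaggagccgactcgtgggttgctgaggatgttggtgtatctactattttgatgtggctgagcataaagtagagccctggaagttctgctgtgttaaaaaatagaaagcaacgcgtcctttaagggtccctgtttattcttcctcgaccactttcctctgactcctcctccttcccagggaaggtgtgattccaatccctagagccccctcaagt
Prlr, middle window, chr15:10223656-10223905: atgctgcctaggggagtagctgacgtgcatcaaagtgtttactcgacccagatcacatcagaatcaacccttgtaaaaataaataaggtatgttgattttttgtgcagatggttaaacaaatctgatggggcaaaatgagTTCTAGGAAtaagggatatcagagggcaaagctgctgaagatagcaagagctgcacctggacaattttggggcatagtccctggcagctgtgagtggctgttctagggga
Prlr, last window, chr15:10293401-10293650: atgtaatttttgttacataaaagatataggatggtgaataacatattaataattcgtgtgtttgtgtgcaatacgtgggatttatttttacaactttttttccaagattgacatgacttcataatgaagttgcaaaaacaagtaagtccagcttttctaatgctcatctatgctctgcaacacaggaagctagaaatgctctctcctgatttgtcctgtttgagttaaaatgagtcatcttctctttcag
The middle window holds the motif as TTCTAGGAA, with its leading base 110 bases before the annotated start. The other Prlr windows do not contain these letters. RefSeq has 14 such windows for the 9 members, and that match was the only one of TTCNNNGAA, while the same core with a spacer of 4 bases, a form that STAT6 also binds, was found in 0 of the 14. Over all 32851 windows of the same length, 7.02% held the core with a spacer of 3 bases and 5.85% the core with a spacer of 4. A match is a description of the letters and not a measured binding site.

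The libraries held 19523104 to 23278931 counts each. Levels are given as CPM, counts relative to the library's total after TMM scaling, in which a factor per library sets the bulk of genes to no change. Changes come from edgeR's quasi-likelihood test, with Benjamini-Hochberg adjustment over all 14235 genes and a threshold of 0.05. GH replicate 6 and PBS replicate 5 stood farthest from their own groups, with root mean square deviations of 0.314 and 0.320 on the log2 scale against 0.201 to 0.264 in the other libraries. The hepatocyte markers Alb, Apoa1, Ttr, Cyp3a11 and Hnf4a were all present, and their summed level was 77980 to 95540 CPM in PBS and 61580 to 85650 CPM in GH livers. No marker of hepatocytes, bile duct cells, Kupffer cells or sinusoidal endothelium changed (edgeR). The summed level was 206 to 299.8 CPM in PBS and 211 to 268 CPM in GH livers for the 6 Kupffer cell markers in the table, and 363 to 477 against 386 to 470 CPM for the 7 endothelial markers. Dcn of the 7 stellate cell markers was lower, and Alas2 of the 3 erythroid markers in the table was higher, with summed erythroid levels of 59.0 to 191 CPM in PBS and 174 to 269.8 CPM in GH livers. Of 5 acinar cell markers, Ctrb1, Pnlip and Prss2 were at 0 in every library. Cpa1 reached at most 0.0487 CPM, and Cela2a ran from 0.132 to 0.812 CPM. In a bulk sample, fewer cells of a type and less RNA per cell cannot be told apart.

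Across all genes tested, 4.79% were called changed with GH, 2.27% higher and 2.52% lower. Of the 9 members, 0 were called higher and 1 was called lower by edgeR, and DESeq2 and limma-voom gave the same counts, with 7.21% and 4.53% of all genes called by them in either direction. Before adjustment, 3 members were under 0.05 (Prlr, Ghr and Tyk2), where 19.0% of all genes were. The sign of the change was positive in 7 members and negative in 2. It is uncertain for Stat5b (0.007) and Stat6 (-0.003), where it turned in 6 and 7 of 22 alternatives. The median log2 fold change of the members was 0.07, beside 0.00 for all genes tested.

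**Figure D1:**
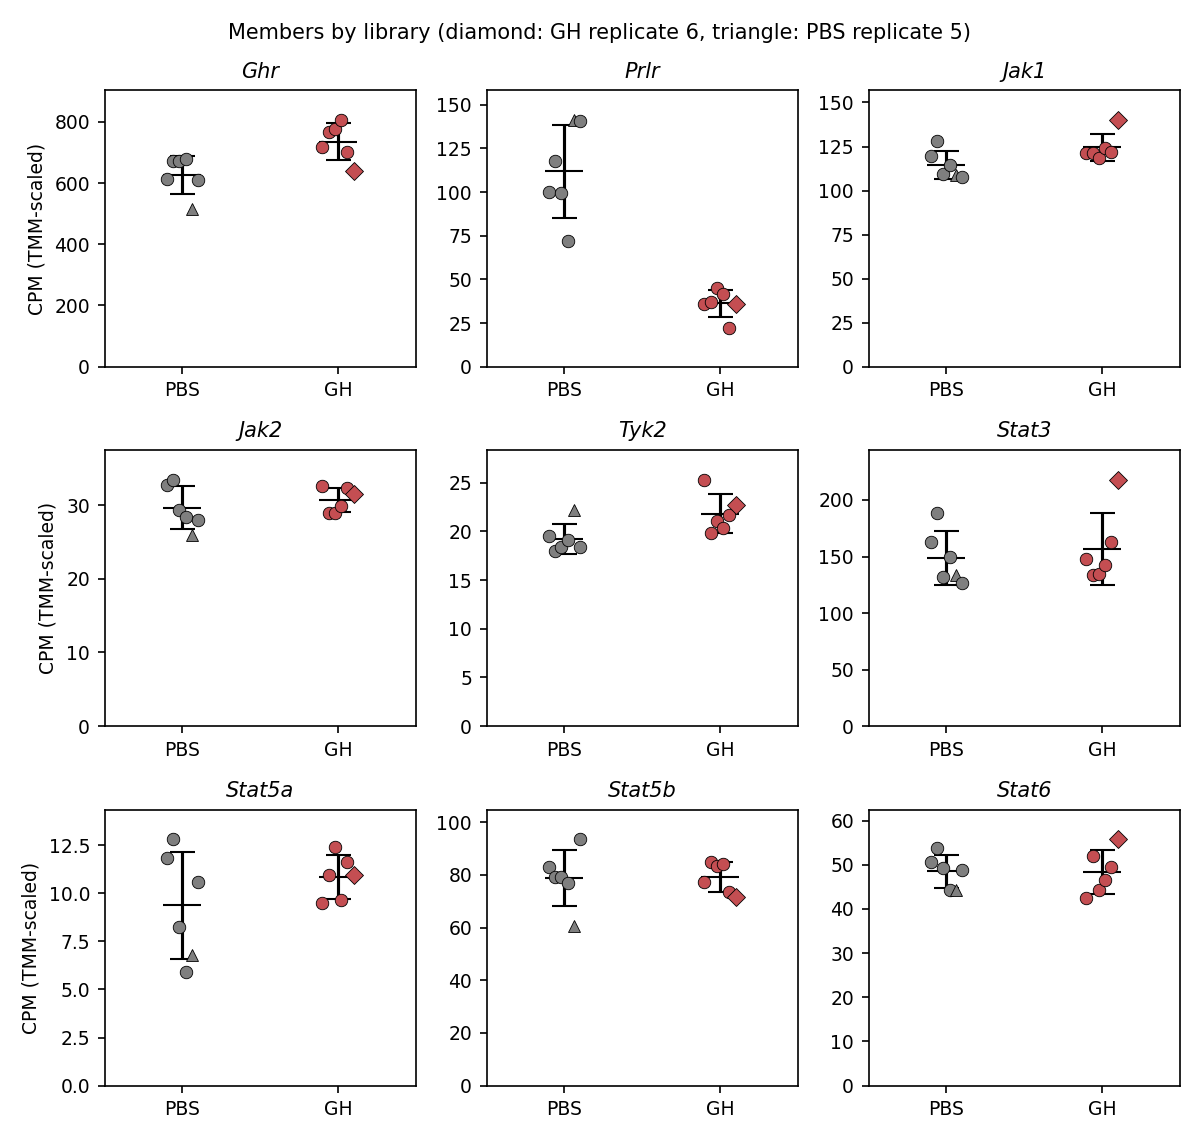
Level of each of the 9 genes in CPM (vertical axes from 0, scaled by TMM) for the 6 PBS and 6 GH libraries, with bars for the mean and SD and separate symbols for GH replicate 6 and PBS replicate 5. Prlr is the gene whose groups do not overlap, with PBS libraries from 72.2 to 141 CPM and GH libraries from 22.2 to 45.3 CPM.

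Prlr (chr15:10177238-10349180, plus strand, GENCODE M21 on mm10) binds prolactin and placental lactogens. Its level in PBS livers ran from 72.2 CPM through a median of 108.8 to 141 CPM, and in GH livers from 22.2 through 36.6 to 45.3 CPM. Every GH library lay below every PBS library, a separation that 3.18% of all genes tested showed in either direction. The mean was 111.9 ± 26.7 CPM in PBS and 36.3 ± 7.85 CPM in GH livers (SD, n = 6 each). This came to a log2 fold change of -1.62 ± 0.19 (SE; edgeR adjusted p = 0.000676), or 3.08-fold lower with a 95% interval of 2.31 to 4.10. Only 29 of the tested genes, 0.204%, had a lower log2 fold change, and Prlr ranked 35 by p. These levels rest on 469 to 3286 counts per library. The highest PBS values, 141 and 140.5 CPM, were in replicates 5 and 6, and the lowest was in replicate 4, while GH replicate 5 was lowest of its group.

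The fall of Prlr passed in each alternative run of the test. Without GH replicate 6 and PBS replicate 5 it was -1.54 on the log2 scale (edgeR adjusted p = 0.00400). Leaving out 1 library at a time gave -1.72 to -1.51.

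Prlr shares sequence with another row of the table, RP23-74N15.4 (Gm21973 in GENCODE M21, chr15:10325380-10373749, plus strand). This gene model is annotated across the end of Prlr and into Agxt2, and of its 358 exonic bases 203 lie in exons of Prlr and 155 in exons of Agxt2. Its level was 103.5 ± 18.8 CPM in PBS and 52.8 ± 6.91 CPM in GH livers (SD, n = 6 each), without overlap, with a log2 fold change of -0.97 ± 0.12 (SE; edgeR adjusted p = 0.000321). Per kilobase of exon it stood at 289 CPM in PBS livers, where Prlr stood at 7.29 and Agxt2 at 54.7, and the density of its counts was thus above that of either gene. The sources used here do not give how the authors' counting assigned reads on the shared exons, and the levels of both rows are uncertain. With the counts of Prlr and RP23-74N15.4 summed, an alternative chosen after seeing the data, the log2 fold change was -1.27 (edgeR adjusted p = 0.000236).

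Agxt2 (chr15:10358532-10410153), which encodes a mitochondrial aminotransferase, begins beyond the end of Prlr. Its level was 173 ± 18.9 CPM in PBS and 208 ± 28.4 CPM in GH livers, a log2 fold change of 0.27 ± 0.09 (SE) that did not pass (edgeR adjusted p = 0.128). The lower values at this locus were thus in the 2 rows with Prlr exons. Of 28 tested genes within 100 kb of any member that are not members themselves, RP23-74N15.4 was the 1 that passed (edgeR). Over all genes tested, 4.79% were called. As it shares exons with Prlr, its call is not independent of that of Prlr.

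**Figure D2:**
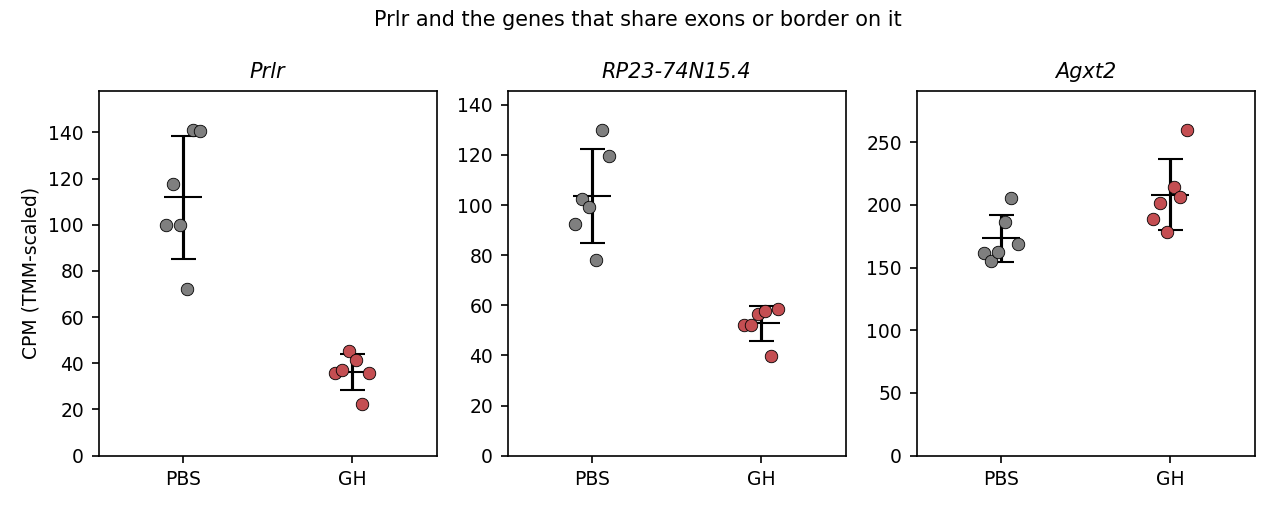
Level in CPM (vertical axes from 0) of Prlr, of RP23-74N15.4, which shares exons with it, and of the neighbouring Agxt2 in the 6 PBS and 6 GH libraries, with bars for the mean and SD. Prlr and RP23-74N15.4 are lower in every GH library than in any PBS library, and the Agxt2 groups overlap, with means of 173 and 208 CPM.

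Ghr (chr15:3317760-3583492, minus strand), the growth hormone receptor, lies 6.59 Mb from Prlr on the same chromosome. Its level in PBS livers ran from 516 CPM through a median of 641 to 679.6 CPM, and in GH livers from 639.5 through 744 to 806 CPM. All 6 GH libraries were above the PBS mean, and 5 of them were above the highest PBS library, with GH replicate 6 as the exception. The difference was 0.23 ± 0.08 on the log2 scale (SE), or 1.17-fold with a 95% interval of 1.04 to 1.32, and did not pass (edgeR adjusted p = 0.134). It passed in 0 of 22 alternatives, with adjusted p from 0.0588 to 0.266. The lowest value of each group was in the library that stood farthest from that group, PBS replicate 5 and GH replicate 6. The gene also gives rise to a secreted form, the GH-binding protein, and Prlr to long and short forms, and counts per gene do not separate them or the starts they were made from.

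The balance of the receptors was read within each library, where it does not depend on scaling. The ratio of Prlr to Ghr counts ran from 0.106 to 0.273 in PBS and from 0.0317 to 0.0584 in GH livers, and all 6 GH libraries lay below the lowest PBS library. The mean was 0.183 ± 0.0599 in PBS and 0.0493 ± 0.00944 in GH livers (SD, n = 6 each). The log2 difference of -1.85 had a two-sided exact permutation p of 0.00216, the smallest that 6 against 6 libraries allow, and 0.00866 after adjustment over 4 ratios. For the difference in medians the adjusted exact p was 0.0520. With the counts of Prlr and RP23-74N15.4 summed, the log2 difference was -1.49 (adjusted exact permutation p = 0.00866). Per length of exon, Prlr made up 9.66 ± 2.86% of the sum of both receptors in PBS and 2.83 ± 0.529% in GH livers. This share uses the Prlr row alone. It leaves out RP23-74N15.4, which shares exons with Prlr, at 103.5 CPM in PBS and 52.8 CPM in GH livers. The share is therefore uncertain.

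Jak2 (chr19:29251828-29313080, plus strand), the kinase of the GH and prolactin receptors, was close in both groups. Its level ran from 26.0 CPM through a median of 28.8 to 33.5 CPM in PBS and from 28.9 through 30.6 to 32.6 CPM in GH livers, and the GH range lay inside the PBS range. The difference was 0.05 ± 0.07 on the log2 scale (SE; edgeR adjusted p = 0.771), and its 95% interval of 0.931 to 1.15 as a fold bounds the difference that these libraries allow.

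Jak1 (chr4:101152367-101265282, minus strand), which works with gp130 and interferon receptors, ran from 107.5 CPM through 112 to 128 CPM in PBS and from 119 through 121 to 140.0 CPM in GH livers. The groups overlapped, with PBS replicate 2, at 128 CPM, above 5 of the 6 GH libraries. The log2 fold change was 0.12 ± 0.06 (SE; edgeR adjusted p = 0.339), and without GH replicate 6 and PBS replicate 5 it was 0.07. Gm12785, a processed pseudogene on the same strand within the span of Jak1, shares no exonic base with it.

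Tyk2 (chr9:21104068-21131243, minus strand), a kinase of the interferon and interleukin 12 receptors, ran from 18.02 CPM through 18.7 to 22.2 CPM in PBS and from 19.8 through 21.4 to 25.3 CPM in GH livers. All 6 GH libraries were above the PBS mean, and the ranges overlapped because of PBS replicate 5. A log2 fold change of 0.18 ± 0.08 (SE) did not pass (edgeR adjusted p = 0.211). The antisense gene 1700084C06Rik overlaps 554 exonic bases of Tyk2, and its counts came to 1.47% of those of Tyk2. The ratio of Jak2 to Jak1 counts was 0.258 ± 0.0131 in PBS and 0.247 ± 0.0170 in GH livers (SD, n = 6 each), a log2 difference of -0.07 with an adjusted exact permutation p of 0.297.

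Stat5b (chr11:100780731-100850724, minus strand), the main STAT of liver GH signalling, ran from 60.7 CPM through 79.2 to 93.6 CPM in PBS and from 71.5 through 80.4 to 84.9 CPM in GH livers. The GH libraries lay inside the PBS range. Its log2 fold change was 0.01 ± 0.09 (SE; edgeR adjusted p = 0.976), with a 95% interval of 0.885 to 1.14 as a fold. Its sign turned under other scaling, to -0.05 with library totals alone, and without GH replicate 6 and PBS replicate 5, to -0.03.

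Stat5a (chr11:100859351-100885169, plus strand), the closely related STAT best known from the mammary gland, lies 8.63 kb from Stat5b. It ran from 5.92 CPM through 9.43 to 12.8 CPM in PBS and from 9.48 through 10.9 to 12.4 CPM in GH livers. PBS libraries spread on both sides of the GH libraries, with coefficients of variation of 29.9% in PBS and 10.4% in GH livers. The log2 fold change of 0.21 ± 0.17 (SE) did not pass (edgeR adjusted p = 0.544), and the gene had 118 to 273 counts per library. Stat5b counts exceeded Stat5a counts 8.93 ± 2.37-fold in PBS and 7.37 ± 0.979-fold in GH livers (SD, n = 6 each; adjusted exact permutation p = 0.297). Per length of exon, Stat5a made up 8.39 ± 1.94% of the sum of both in PBS and 9.65 ± 1.14% in GH livers. As closely related genes, the 2 could exchange reads with several matches, and the sources used here do not give how those were treated.

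Stat3 (chr11:100885098-100939540, minus strand), the STAT of the interleukin 6 acute-phase response, lies next to Stat5a, and their exons overlap by 72 bases on opposite strands. It ran from 126 CPM through 141 to 188 CPM in PBS and from 134 through 145 to 218 CPM in GH livers. The groups overlapped almost fully, and GH replicate 6 stood above all other libraries. Its log2 fold change was 0.07 ± 0.13 (SE; edgeR adjusted p = 0.807), and it was -0.04 without GH replicate 6. The ratio of Stat3 to Stat5b counts was 1.92 ± 0.368 in PBS and 2.01 ± 0.562 in GH livers (SD, n = 6 each; adjusted exact permutation p = 0.801).

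Stat6 (chr10:127642986-127660957, plus strand), the STAT of interleukins 4 and 13, ran from 44.2 CPM through 49.1 to 53.7 CPM in PBS and from 42.4 through 47.9 to 55.8 CPM in GH livers. The PBS range lay inside the GH range. Its log2 fold change was -0.003 ± 0.07 (SE; edgeR adjusted p = 0.990), and its sign turned in 7 of 22 alternatives. Its exons overlap those of Nab2 on the opposite strand by 40 bases.

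**Figure D3:**
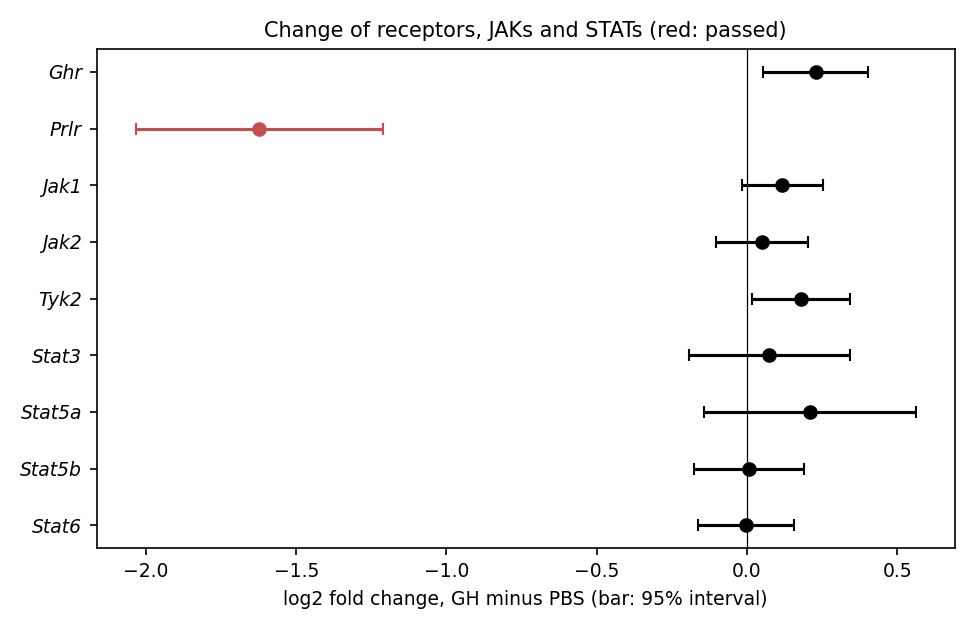
Log2 fold change (GH minus PBS) with its 95% interval for the 9 members. Prlr lies at -1.62 and the other members between -0.003 and 0.23, with intervals of Ghr and Tyk2 that do not include 0 before adjustment.

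Between genes, levels were compared as CPM per kilobase of annotated exon. In PBS livers the order was Ghr at 69.3 ± 6.91, Jak1 at 15.9 ± 1.09, Stat3 at 15.6 ± 2.49, Stat5b at 14.2 ± 1.92 and Stat6 at 11.0 ± 0.838 (SD, n = 6). Prlr followed at 7.29 ± 1.74, Jak2 at 5.89 ± 0.575, Tyk2 at 2.81 ± 0.225 and Stat5a at 1.31 ± 0.393. Ghr was thus 4.36 times as high as the next gene by this length, and the factor depends on the length used. The neighbours Jak1 and Stat3, Stat3 and Stat5b, and Prlr and Jak2 had overlapping ranges of mean ± SD, and the other neighbours did not. In GH livers Prlr, at 2.37 ± 0.512, moved from rank 6 to rank 8, below Jak2 at 6.10 and Tyk2 at 3.18 ± 0.289 and above Stat5a at 1.52 ± 0.158, while the other genes stayed in the same order. The libraries of Prlr overlapped there with those of Tyk2 and of Stat5a. With the longest coding transcript as length, Ghr stood at 150.2 in PBS livers and Stat3 came before Jak1 (24.6 against 23.4). By that length Prlr again moved from rank 6 to rank 8. Among the 3 kinases Jak1 made up 64.6% per length in PBS and 65.0% in GH livers, and among the 4 STATs Stat3 made up 37.0% and 37.8%.

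Libraries of the same group differed together in some members. Over 36 pairs of members, the correlation of deviations from the group mean over the 12 libraries ran from -0.715 to 0.951, and the pair with the highest value was Jak1 and Stat3. For that pair Pearson's r was 0.951 (permutation p = 0.00028 within groups, adjusted p = 0.0101) and Spearman's rho was 0.902 (permutation p = 0.00044, adjusted p = 0.0158). Within PBS libraries alone r was 0.997 and within GH libraries alone 0.929 (n = 6 each). With the 2 libraries most distant from the median of Jak1 left out, GH replicate 6 and PBS replicate 2, r was 0.814. No other pair passed, with adjusted permutation p of at least 0.125. GH replicate 6, highest in its group for Jak1, Stat3 and Stat6, also had Saa1, an acute-phase protein gene, at 3056 CPM, the highest of all 12 libraries, and the part of this library's state in the correlation was not tested.

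**Figure D4:**
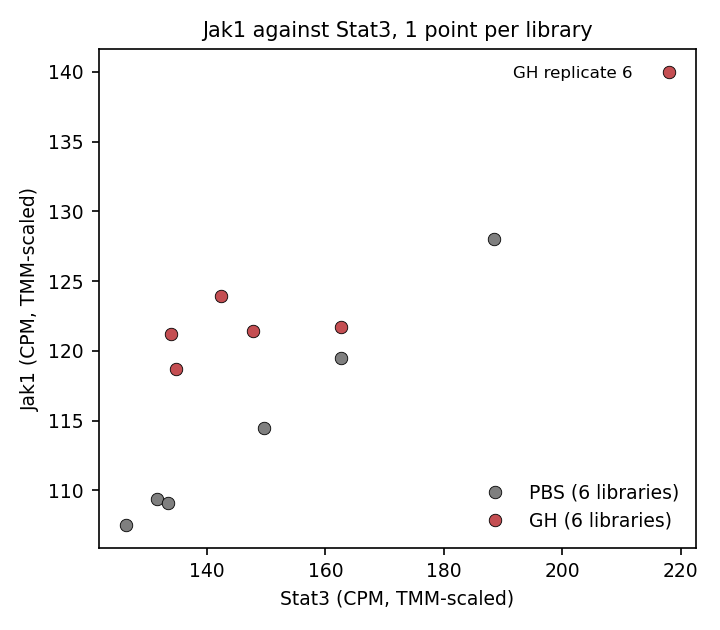
Level of Jak1 (vertical axis, CPM) against Stat3 (horizontal axis, CPM), 1 point per library, neither axis starting at 0. The genes run together within each group, and GH replicate 6, at 218 CPM of Stat3 and 140.0 CPM of Jak1, is the highest point on both axes.

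Genes most like 3 of the members were taken by the same correlation among 12860 genes with a mean of at least 1 CPM, as a description over 12 libraries that share their scaling. For Prlr these were RP23-74N15.4, which shares its exons (r = 0.941), Acsl1, an acyl-CoA synthetase of fatty acid metabolism (r = 0.898), and Pcyt1a, an enzyme of phosphatidylcholine synthesis (r = 0.892). Acsl1 itself fell with GH, by 0.47 on the log2 scale (edgeR adjusted p = 0.00982), from a mean of 1003 to 722 CPM. For Ghr they were Gna14 (0.963), F2r (0.951) and Cav1 (0.943), and for Stat5b Cpsf4l (0.907), Mgll (0.895) and Nt5dc1 (0.892). None of these 6 passed the test between groups (edgeR adjusted p of 0.350 to 0.906). In the same order, Spearman's rho was 0.937, 0.951 and 0.93 for the Ghr genes and 0.72, 0.832 and 0.741 for the Stat5b genes. PBS replicate 5 and GH replicate 6 were each the lowest of their group for both Ghr and Stat5b. Without these libraries, r between Ghr and Stat5b was 0.00616 in place of 0.68. The part of these libraries in the lists above was not tested.

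The genes around the members were taken from lists by role, which hold 112 distinct genes, of which 101 were tested. With GH, 13 were called higher and 6 lower (edgeR), where 2.27% and 2.52% of all genes tested were. Without GH replicate 6 and PBS replicate 5, 16 were called higher and 6 lower, and the shares over all genes were then 3.64% and 3.54%.

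Ligand genes had few counts. Gh had 2 counts, Ghrh 2 and Prl 0 over 255665871 counts in the 12 libraries, where a count of 0 allows up to 0.0117 CPM (3 counts, counting error only). Ghrl had 3 counts, and the prolactin family genes Prl2c2 and Prl2c3 had 15 each. None of the 6 ligand genes in the table was tested. The injected hormone was human and is not read by these rows.

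Of 20 tested receptors for other cytokines that use JAKs, 0 passed by edgeR. An unadjusted edgeR p under 0.05 was found for 4 of the 20, beside 19.0% of all genes tested. DESeq2 called 1 higher and 1 lower, and limma-voom called 0. Without GH replicate 6 and PBS replicate 5, edgeR called 1 higher and 0 lower. The smallest p was that of Il22ra1, the interleukin 22 receptor, at 3.16 ± 1.09 CPM in PBS and 5.30 ± 1.39 CPM in GH livers (log2 fold change 0.74, edgeR adjusted p = 0.0847). Close to it was Lepr, the leptin receptor, named after its values were seen, at 9.68 ± 3.39 CPM in PBS and 5.79 ± 1.46 CPM in GH livers (log2 fold change -0.74, edgeR adjusted p = 0.0864). These are the genes that DESeq2 called. Il22ra1 gained the call in 4 of 22 alternatives. The list's median log2 fold change was 0.05.

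Among 16 tested inhibitors of the pathway, 2 fell and 1 rose by edgeR, beside 2.52% lower and 2.27% higher of all genes tested. DESeq2 gave the same counts. Both limma-voom and edgeR without GH replicate 6 and PBS replicate 5 called 2 lower and 0 higher. The list's median log2 fold change was -0.004. Socs2, which blocks GH receptor signalling and is itself a STAT5 target, ran from 4.66 to 25.8 CPM in PBS and from 1.05 to 1.85 CPM in GH livers, without overlap. Its log2 fold change was -3.37 ± 0.40 (SE; edgeR adjusted p = 0.000840). Cish, of the same family, ran from 1.84 to 21.2 CPM in PBS and from 0.189 to 1.02 CPM in GH livers, also without overlap, and changed by -3.63 ± 0.74 (SE; edgeR adjusted p = 0.0201), or by -2.98 without PBS replicate 4. In both genes the spread among PBS libraries was wide, and PBS replicate 4, lowest of its group for Prlr, was the highest. Pias3, an inhibitor named for its binding to STAT3 and chosen after its values were seen, was higher by 0.63 ± 0.18 (SE; edgeR adjusted p = 0.0492) and no longer passed in 14 of 22 alternatives, with an adjusted p of up to 0.118. Socs3, the inhibitor induced by STAT3, was at 8.89 ± 6.69 CPM in PBS and 6.40 ± 6.13 CPM in GH livers (edgeR adjusted p = 0.774).

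Of 16 tested adaptors and kinases below the GH receptor, 5 were at an unadjusted edgeR p under 0.05, beside 19.0% of all genes tested. By the main edgeR test or limma-voom 0 passed, and DESeq2 called 1 lower. That gene was Irs2, an insulin receptor substrate, at 34.5 ± 9.84 CPM in PBS and 20.2 ± 7.04 CPM in GH livers (log2 fold change -0.77 ± 0.25, edgeR adjusted p = 0.112, DESeq2 adjusted p = 0.0106). Irs2 gained the call in 3 of 22 alternatives, among them edgeR with the replicate block (adjusted p = 0.00285). Of 6 genes for shedding and degradation of the GH receptor, 0 passed by any of the 3 tools. At an unadjusted edgeR p under 0.05 was 1 of the 6, beside 19.0% of all genes tested. That was Rnf7, a ubiquitin ligase subunit, at 18.7 ± 1.37 CPM in PBS and 16.3 ± 0.919 CPM in GH livers (edgeR adjusted p = 0.121).

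Among 14 tested partners of STAT5 on DNA, 2 fell and 0 rose by edgeR, beside 2.52% lower and 2.27% higher of all genes tested. An unadjusted edgeR p under 0.05 was found for 6 of the 14, beside 19.0% of all genes tested. The list's median log2 fold change was 0.06. DESeq2 called 1 higher and 3 lower, limma-voom 2 higher and 2 lower, and edgeR 1 higher and 2 lower without GH replicate 6 and PBS replicate 5. Onecut1, a hepatic transcription factor known as HNF6, ran from 6.11 to 37.0 CPM in PBS and from 1.23 to 2.29 CPM in GH livers, without overlap, and changed by -3.60 ± 0.46 (SE; edgeR adjusted p = 0.00167). Nmi, which binds MYC and STAT proteins, was at 14.2 ± 1.48 CPM in PBS and 11.3 ± 0.729 CPM in GH livers and changed by -0.33 ± 0.08 (SE; edgeR adjusted p = 0.0292), a call lost in 8 of 22 alternatives. Bcl6 and Crebbp, a repressor that competes with STAT5 and a coactivator, were named after their values were seen. Bcl6 was at 26.1 ± 19.7 CPM in PBS and 67.1 ± 11.6 CPM in GH livers (log2 fold change 1.36 ± 0.48, SE; edgeR adjusted p = 0.151, limma-voom adjusted p = 0.0228). Crebbp was at 31.4 ± 2.42 and 36.5 ± 0.703 CPM (log2 fold change 0.22 ± 0.06, SE; edgeR adjusted p = 0.0520), and DESeq2 and limma-voom called it higher (adjusted p = 0.0186 and 0.0446). In both genes 6 of 6 GH libraries were above the PBS mean, with ranges that overlapped.

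Of 15 tested liver targets of STAT5, 4 rose and 5 fell by edgeR, with a median log2 fold change of 0.19. Over all genes tested, 2.27% were called higher and 2.52% lower. The rising genes were Cyp7b1, a male-biased oxysterol hydroxylase, the urinary protein gene Mup20, and the protease inhibitor genes Serpina3c and Serpina3k. Mup20 no longer passed in 3 of 22 alternatives (adjusted p of 0.0501 to 0.0602). Cyp7b1 ran from 133 to 330.2 CPM in PBS and from 475 to 777 CPM in GH livers, without overlap (log2 fold change 1.67, edgeR adjusted p = 0.000935). Besides Socs2, Cish and Onecut1, the genes that fell were Igf1 and Igfals, the hormone through which GH drives growth and its carrier subunit. Igf1 ran from 401 to 541 CPM in PBS and from 228 to 398 CPM in GH livers, without overlap (log2 fold change -0.67 ± 0.12, edgeR adjusted p = 0.00382). Igfals fell by 0.69 on the log2 scale (edgeR adjusted p = 0.0323) and no longer passed in 9 of 22 alternatives.

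Of 16 tested liver targets of STAT3, most of them acute-phase genes, 8 rose and 0 fell by edgeR, with a median log2 fold change of 0.75. Over all genes tested, 2.27% were called higher and 2.52% lower. DESeq2 called 7 higher and limma-voom 8, with 0 lower by either. An unadjusted edgeR p under 0.05 was found for 11 of the 16, beside 19.0% of all genes tested. The 8 genes higher by edgeR were A2m, Apcs, Hp, Hpx, Lrg1, Orm1, Saa1 and Saa2. Apcs, serum amyloid P, ran from 88.5 to 149 CPM in PBS and from 225 to 357 CPM in GH livers, without overlap (log2 fold change 1.48, edgeR adjusted p = 0.000117). Orm1, an acute-phase glycoprotein, rose from 570.2 ± 98.3 to 986 ± 69.1 CPM (SD, n = 6 each; edgeR adjusted p = 0.000333). Saa1 and Saa2, the serum amyloid A genes, were highest in GH replicate 6, and without it Saa1 rose by 3.27 in place of 3.88 and Saa2 by 3.66 in place of 5.07 on the log2 scale. Saa1 no longer passed in 1 of 22 alternatives and Saa2 in 1 of 21, as Saa2 has no DESeq2 value. The list also had 8 higher genes without that library. Hp and Hpx, the haptoglobin and hemopexin genes, no longer passed in 6 and 9 of 22 alternatives. Saa1 and Saa2 are near-identical copies, and the split of reads between them is uncertain.

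**Figure D5:**
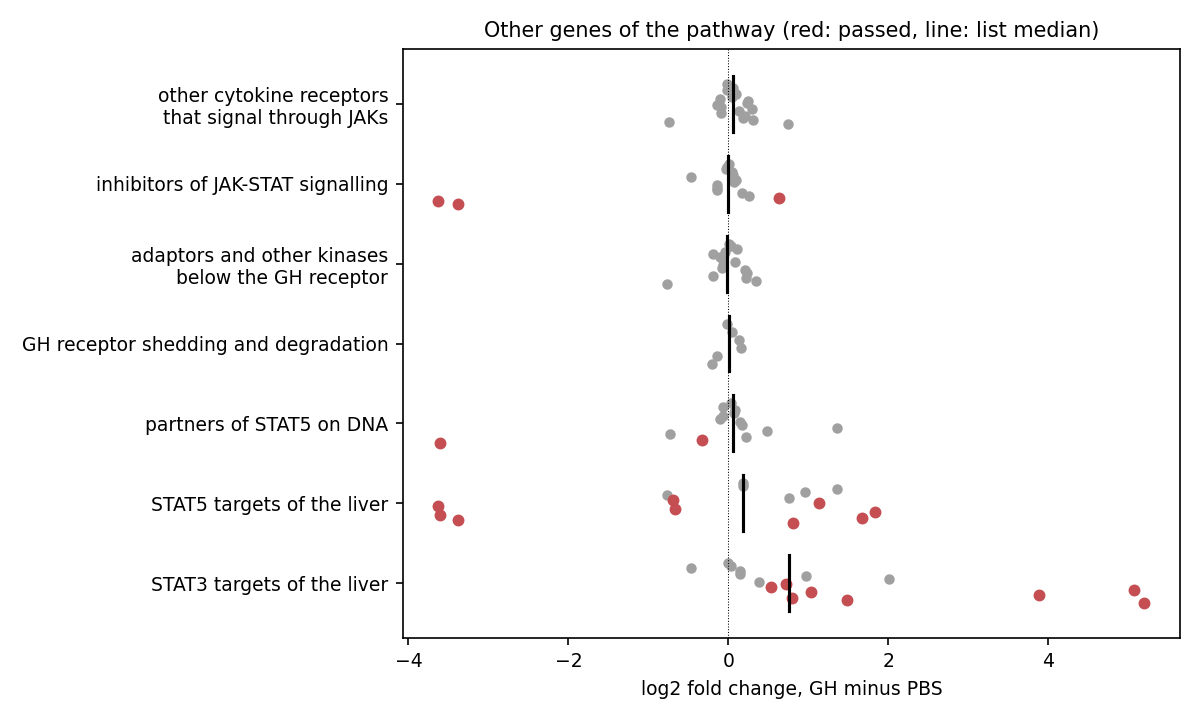
Log2 fold change (GH minus PBS, horizontal axis) of each tested gene in 7 lists around the receptors, with red points for genes that passed and a line at each list's median. Medians run from -0.02 for adaptors and kinases below the GH receptor to 0.75 for the STAT3 targets, where 8 of 16 genes passed, all higher.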

How the data were processed

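Liver RNA was sequenced in 12 libraries, 6 per group. Per the labels' protocols, 250 ng of total RNA went through a stranded kit with depletion of ribosomal RNA, 12 cycles of PCR and paired reads of 125 cycles. The submitters' processing notes name STAR 2.4.0i and mm10. The sources used here do not give the counting program, its annotation, or how it handled strand, shared exons and multiple matches. The authors deposited raw read counts per gene, without normalization. Of 38087 genes, 10628 had no count, and 36308 identifiers matched GENCODE M21, which gave coordinates and exon lengths. The sources used here do not give whether 50 µg was the amount of an injection or of a day.

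Groups were taken from the treatment label. Counts were tested with edgeR 4.0.16 in R 4.3.3 (filterByExpr with a minimum count of 10, TMM, robust quasi-likelihood fit, group only), adjusted by Benjamini-Hochberg over 14235 genes, and the common coefficient of biological variation was 0.168. DESeq2 1.42.0 and limma-voom (limma 3.58.1), other scalings and filters, a replicate block and leaving out libraries were alternatives. The script was tested on simulated data. Ratios within a library used a two-sided exact permutation test over 924 assignments. Correlations used log2(CPM + 0.5) less the group mean, with 100000 permutations within groups. Named genes were the members, pathway genes past the threshold (up to 12 per direction by p) or the one with the smallest p in a list without any, neighbours within 100 kb past the threshold, and the 3 genes most correlated with Prlr, Ghr and Stat5b. Members and lists were chosen with earlier results of these data known, so their counts are a description. A further pathway list enters the totals only and is not reported here. Promoter sequences are from RefSeq (GRCm38.p6), matched by symbol for 9 of 9 members. The replicate numbers did not pair the samples.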

Additional observations from a re-analysis of the deposited data

Results flagged for a closer look

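In groups of 6 libraries, the highest or lowest value was set against its nearest neighbour by Dixon's ratio of that gap to the range and its 95% critical value. Of 26 groups tested, 4 held such a value, where chance gives about 1 in 20. Jak1 was at 140.0 CPM in GH replicate 6, with a gap of 0.758 of the range. Stat3 was at 218 CPM in the same library, with a gap of 0.658 of the range. Tyk2 was at 22.2 CPM in PBS replicate 5, with a gap of 0.651 of the range. The ratio of Prlr to Ghr counts was 0.0317 in GH replicate 5, with a gap of 0.628 of the range, on the side away from the PBS libraries.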

How the results depend on the processing

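Prlr passed in every alternative (largest adjusted p 0.0211, with the replicate block), and the members' counts of 0 higher and 1 lower did not change. The main counts over all genes were 323 higher and 359 lower. They were 211 and 658 with library totals alone (24.3% of calls higher, against 47.4%; median log2 fold change -0.06), 506 and 551 with DESeq2 (which also called 11 pathway genes lower, not 6), and 180 and 211 with the replicate block, where Saa1 and Saa2 had adjusted p of 0.0704 and 0.0875. Without GH replicate 6 and PBS replicate 5, 518 were higher. Leaving out 1 library gave 193 to 410 higher (208 without PBS replicate 3, 203 without PBS replicate 6, 194 without GH replicate 1, 193 without GH replicate 2) and 241 to 444 lower. The Prlr to Ghr difference was -1.85 with the replicate block (adjusted exact p = 0.125, the smallest that 6 pairs allow), -1.74 between medians (0.0520), and -1.99 to -1.72 with 1 library left out. Summing the counts of Prlr and RP23-74N15.4, an alternative chosen after seeing the data, gave -1.49 (adjusted exact permutation p = 0.00866). Same-numbered libraries correlated from -0.205 to 0.183, and 1 of 12 correlated best with its own number. Stat3 to Stat5b turned to -0.12 between medians, -0.03 without GH replicate 6 and PBS replicate 5, and -0.08 to 0.12 with 1 library left out. Signs of small changes turned: Stat5b (-0.05) and Jak2 (-0.01) with library totals, Stat6 with upper quartile scaling (0.00), Cpsf4l with limma-voom (0.03), Stat3 (-0.08) and Stat5b (-0.03) without GH replicate 6 and PBS replicate 5. With 1 library left out the ranges were -0.05 to 0.03 for Stat6, -0.06 to 0.06 for Stat5b, -0.04 to 0.15 for Stat3 and -0.07 to 0.25 for Cav1. In all, 838 of 924 values of 42 named genes kept direction and side of the threshold, 52 lost and 15 gained the call. The cause was not tested. Stat5a, at 118 to 273 counts per library, is the member that depth limits most.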
